A study of Mus musculus with 4 samples.

Results

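The secretory pathway and ER folding genes are 38 genes that carry new proteins from the ribosome into the endoplasmic reticulum (ER), fold and modify them there, and pass them on towards the Golgi. They were chosen by symbol, and all 38 of the 38 have a row among the 28001 features of the deposited count tables. By role they fall into 7 lumenal chaperones and cofactors, 6 lectin chaperones and disulphide isomerases, 10 genes of translocation, signal peptide cleavage and glycan transfer, 4 genes of collagen folding, 7 genes of ER export and retrieval, and 4 transcription factors.

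Secreted and membrane proteins enter the ER through the Sec61 channel, lose their signal peptide, receive glycans, and fold with the help of Hspa5 (BiP) and other chaperones. When unfolded protein builds up, the sensors of the unfolded protein response act through the transcription factors Xbp1, Atf6 and Atf4, and many ER chaperone genes are known targets. Collagen needs helpers of its own, among them Serpinh1 (Hsp47) and Fkbp10, and is a large cargo for the COPII coats that bud from the ER. Cardiac fibroblasts secrete the collagen of the heart, and Cthrc1 marks the fibroblasts that take on a matrix-producing state after infarction.

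The study sequenced single cells from mouse hearts of C57BL/6 background in 4 droplet libraries, 1 for each kind of sample and none repeated. Hic1 CreERT2 tdTomato+ cells, sorted for a red label that Hic1-driven recombinase turns on and that then stays on, made up 1 library of 3 pooled undamaged hearts. A second such library came from 3 pooled hearts taken 7 days after ligation of the left anterior descending coronary artery (LAD), a model of infarction. The citrine library held Hic1 Citrine+ cells of 3 undamaged hearts, each marked with an antibody hashtag. The PDGFRa library held PDGFRa H2BEGFP+ cells, which carry a nuclear reporter driven by the Pdgfra gene (strain B6.129S4-Pdgfratm11(EGFP)Sor/J), of 4 hashed hearts, 2 undamaged and 2 ligated; the labels used here do not tell which hashtag marks which heart, so these 4 hearts are given one by one and never as groups. The sort restricts each library to cells with its reporter, and age, sex and the timing of label induction are not given in the sources used here.

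After filtering, the libraries kept 2786 (tdTomato, undamaged), 4263 (tdTomato, ligated), 10838 (citrine) and 12567 (PDGFRa) cells. Their median UMI counts (unique molecules per cell) were 3453, 3668, 8038.5 and 7729 in this order. Cells were named by clustering without the secretory genes. Fibroblast-like cells numbered 2429, 3122, 10355 and 12245, and their clusters each had at least 5 of 10 fibroblast markers. The tdTomato libraries also held 183 and 820 pericyte-like and 161 and 301 smooth-muscle-like cells. Between 0 and 36 barcodes were shared by any pair of libraries, 36 of them by the citrine and PDGFRa libraries and 8 by both tdTomato libraries. Activated fibroblasts were defined as fibroblast-like cells with at least 2 Cthrc1 UMIs: 4 in the undamaged tdTomato library, 272 in the ligated one, 33 in the citrine library and 2767 in the PDGFRa library. In the ligated tdTomato library 1 of 820 pericyte-like and 1 of 301 smooth-muscle-like cells also had 2 Cthrc1 UMIs or more. All levels are UMI counts scaled to a total of 1000000 (CPM) of the summed cells, so a value is a share of the RNA of those cells, and fewer copies of a transcript cannot be told apart from more of all others.

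Activated fibroblasts were compared with the other fibroblast-like cells of the same heart. Of the collagen folding genes 2 of 4 rose, of the genes at the ER entry 5 of 10 and of the export and retrieval genes 2 of 7, while Hspa5, Hsp90b1, Calr and Canx did not pass the test. Fkbp10 rose 1.87-fold, Sec61b 1.52-fold, Ssr2 1.45-fold, Lman1 1.38-fold and Serpinh1 1.31-fold, and the chaperone cofactor Sdf2l1 fell to 0.663 of its level. In all, 10 of the 38 genes rose and 1 fell at an adjusted p under 0.05, in edgeR's quasi-likelihood test with the heart as a block, across 12842 genes and 5 hearts. Of all genes tested, 17.4% rose and 18.9% fell. Higher genes were 47.9% of all calls, and 35.5% without scaling beyond the total, where 10 of the 38 genes again rose and 2 (Hyou1, Sdf2l1) fell. The median log2 difference was 0.20 over the 38 genes and -0.04 over all genes tested. The 5 hearts were those with at least 10 activated cells. They were PDGFRa hearts 1 to 4, with 1077, 1240, 13 and 14 such cells, and citrine heart 3 with 14. The heart calls of the small groups depended on the hashtag rule. Where 1 hashtag had to hold at least 80% of a cell's hashtag UMIs, PDGFRa hearts 3 and 4 had 1 and 6 activated cells. They had 563 and 1084 others and left the fit, and citrine heart 2 entered with 11 activated cells. On those 4 hearts 12 of the 38 genes rose and 0 fell, and 1877 of all 12934 genes rose and 1928 fell.

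Both of the called collagen folding genes were higher in activated cells of each of the 5 hearts. Fkbp10 (ENSMUSG00000001555, chromosome 11, 100415697 to 100424824 in mm10), a prolyl isomerase of collagen, stood at 111, 116, 105 and 57.2 CPM in the activated cells of PDGFRa hearts 1 to 4 and at 129 in those of citrine heart 3. In the other cells of the same hearts it stood at 65.7, 60.5, 49.8, 47.4 and 65.5 CPM. The log2 difference was 0.90 ± 0.13 (SE), with an adjusted p of 4.53e-05; only 16, 9 and 24 UMIs lie behind the activated values of PDGFRa hearts 3 and 4 and citrine heart 3. Across hearts the ranges overlapped through PDGFRa heart 4, the lowest in activated cells.

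Serpinh1 (ENSMUSG00000070436, chromosome 7, 99345376 to 99353239), the chaperone that binds the folded procollagen helix, was at 1829, 1719, 1553 and 1944 CPM in activated cells of PDGFRa hearts 1 to 4 and at 1756 in citrine heart 3, against 1436, 1172, 1289, 1689 and 1231 CPM in the other cells. Its log2 difference was 0.39 ± 0.11 (SE; adjusted p = 0.00975). The ranges overlapped across hearts through PDGFRa heart 4, high in both kinds of cell. Each of the 5 hearts was higher in its activated cells. Citrine hearts 1 and 2, with 3 and 8 activated cells and not in the fit, went the other way for Serpinh1. They had 787 and 801 CPM in activated cells, from 23 and 80 UMIs, and 1346 and 976 CPM in the others. Over all 7 hearts Serpinh1 was not called. Fkbp7 and Fkbp9, ER prolyl isomerases, did not pass, with log2 differences of 0.20 and -0.11.

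Of the 10 genes at the ER entry, 5 rose and none fell. Sec61b, a small subunit of the translocation channel, was at 574, 534, 465 and 559 CPM in activated cells of PDGFRa hearts 1 to 4 and at 431 in citrine heart 3. The other cells had 376, 298, 355, 349 and 335 CPM. The 2 sets do not overlap in these 5 hearts, and the log2 difference was 0.61 ± 0.13 (SE, adjusted p = 0.00216 in edgeR). Sec61g, the other small subunit, ranged from 851 to 1019 CPM in activated and from 615 to 753 in other cells, again without overlap (log2 0.41, adjusted p = 0.0163). Citrine heart 1, outside the fit, was lower in its 3 activated cells for both. Sec61b was at 240 against 355 CPM there, from 7 UMIs, and Sec61g at 616 against 772 CPM, from 18. Citrine heart 2, also outside, was higher for both (520 against 307 and 961 against 711 CPM). The large channel subunit Sec61a1 did not pass: it was higher in activated cells of 3 hearts and lower in PDGFRa hearts 3 and 4, where 6 and 7 UMIs were counted.

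The translocon-associated protein complex, which helps chains through the channel, rose in 3 of its 4 subunits. Ssr2 was at 309, 284, 269 and 210 CPM in activated cells of PDGFRa hearts 1 to 4 and at 226 in citrine heart 3, against 202, 172, 162, 175 and 212 CPM in other cells (log2 0.54 ± 0.15 SE, adjusted p = 0.00989). In citrine hearts 1 and 2, outside the fit, Ssr2 was at 103 and 200 CPM in activated cells, from 3 and 20 UMIs. The other cells there had 236 and 201 CPM. Ssr4 did not overlap, with 432 to 524 CPM in activated and 349 to 394 in other cells of the 5 hearts (log2 0.42, adjusted p = 0.0206). Ssr3 rose by a log2 of 0.41 (adjusted p = 0.0285) and was higher in 4 of 5 hearts. Ssr1 was at a log2 of 0.17 and did not pass. The signal peptidase subunits Spcs1 and Spcs2 and the oligosaccharyltransferase subunit Ostc were at log2 0.23, -0.03 and 0.24, none past the threshold.

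Among the 7 export and retrieval genes 2 rose. Lman1, a cargo receptor for glycoproteins, was at 270, 247, 216 and 241 CPM in activated cells of PDGFRa hearts 1 to 4 and 264 in citrine heart 3, above the 155 to 206 CPM of the other cells (log2 0.46 ± 0.14 SE, adjusted p = 0.0147). In citrine hearts 1 and 2, outside the fit, Lman1 was at 240 and 90.1 CPM in activated cells, from 7 and 9 UMIs. The other cells there had 154 and 150 CPM. Sec23a, a subunit of the inner COPII coat, had a log2 difference of 0.36 ± 0.09 (adjusted p = 0.00594) and was higher in each of the 5 hearts. Only 8, 9 and 13 UMIs lie behind its activated values in PDGFRa hearts 3 and 4 and citrine heart 3. In PDGFRa hearts 3 and 4 the differences were small (52.4 against 49.9 and 57.2 against 54.5 CPM). Its partner Sec24d and the collagen export factor Mia3 were at log2 0.09 and 0.06, and the retrieval receptors Kdelr1, Kdelr2 and Kdelr3, which return chaperones to the ER, at 0.28, 0.35 and 0.20, none of them past the threshold.

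No gene of the 6 lectin chaperones and disulphide isomerases passed, and of the 7 lumenal chaperones only Sdf2l1 did. Sdf2l1 (ENSMUSG00000022769, chromosome 16, 17130138 to 17132383), a partner of Hspa5 and Dnajb11, was at 50.3, 30.3, 91.7 and 159 CPM in activated cells of PDGFRa hearts 1 to 4 and at 97.0 in citrine heart 3. The other cells had 113, 49.2, 110, 222 and 79.3 CPM, so it was lower in 4 of 5 hearts and higher in the citrine heart (log2 -0.59 ± 0.16 SE, adjusted p = 0.00738). Hspa5 (ENSMUSG00000026864, chromosome 2, 34771970 to 34777547), the main Hsp70 of the ER, stood at 2315, 1664, 1940 and 2642 CPM in activated cells of PDGFRa hearts 1 to 4 and at 910 in citrine heart 3. In other cells it stood at 2320, 1402, 1837, 2694 and 926 CPM, and the log2 difference was 0.07 ± 0.11 (adjusted p = 0.662). Citrine heart 3 was lowest in both kinds of cell. Within each heart the 2 values lay close together, except in PDGFRa heart 2, where activated cells were higher (log2 0.25). Hsp90b1, the Hsp90 of the ER, was at log2 0.02, and the calcium-binding lectin chaperones Calr and Canx at 0.15 and -0.17. The disulphide isomerases Pdia3, Pdia4, Pdia6 and P4hb, the last also a subunit of collagen prolyl hydroxylase, lay between 0.06 and 0.30. Manf and Creld2, stress-induced ER proteins, were at 0.14 and 0.23, and Hyou1 and Dnajb11, cofactors of Hspa5, at -0.20 and -0.16.

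Of the transcription factors only Ddit3 (CHOP), a factor of prolonged ER stress, passed. It was at 143, 192, 65.5 and 273 CPM in activated cells of PDGFRa hearts 1 to 4 and at 32.3 in citrine heart 3, against 104, 113, 74.2, 165 and 48.0 CPM in the others. It was higher in 3 and lower in 2 of the 5 hearts, and the log2 difference was 0.50 ± 0.18 (SE; adjusted p = 0.0358 in edgeR). It was not called in DESeq2 (adjusted p = 0.227), without the heart as a block (0.341), without the low-count filter, with all kept cells, with the 80% hashtag rule, within the depth range, with at least 1 Cthrc1 UMI as the mark, after thinning, over all 7 hearts, or without PDGFRa heart 1, 2 or 4. Xbp1 and Atf4, effectors of the unfolded protein and integrated stress responses, were at log2 -0.19 each. Creb3l1, a factor known for collagen secretion in bone, was at 0.24.

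**Figure D1:**
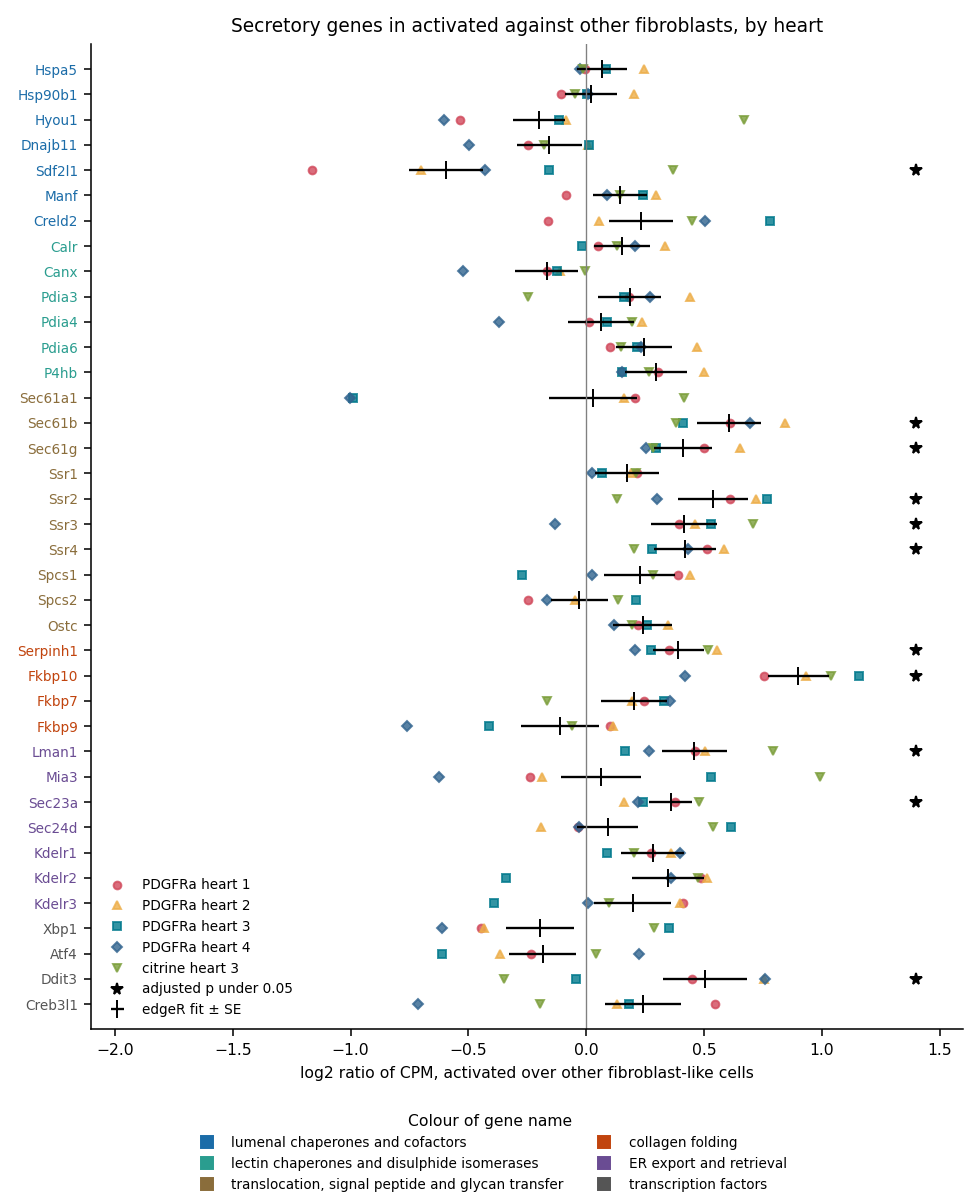
Log2 ratio of CPM in activated over other fibroblast-like cells (x axis) for the 38 genes (y axis, coloured by role), with 1 symbol for each of the 5 hearts, the edgeR estimate with its standard error in black, and a star where the adjusted p was under 0.05. Fkbp10 and Sec61b lie to the right of 0 in all 5 hearts, the estimates of Hspa5 and Hsp90b1 lie close to 0, and Sdf2l1 lies to the left in 4 of 5.

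The count of genes that rose rested on the PDGFRa hearts with many activated cells. Without PDGFRa heart 1 it was 2 (Sec61b and Fkbp10), and without PDGFRa heart 2 it was 2 as well, with none lower in either. Without citrine heart 3 it was 16. Fitted on the 2 hearts with at least 20 activated cells, PDGFRa hearts 1 and 2, 28 genes were higher and 3 (Sdf2l1, Xbp1, Atf4) were lower. Over all genes, 3358 of 12672 were higher and 3276 lower. The plan allowed no test on so few hearts, so these calls only describe the 2 hearts. The 28 included Hspa5 and Hsp90b1 (log2 0.24 and 0.16), Manf, Calr, Pdia3, Pdia4, Pdia6 and P4hb, none of which passed over 5 hearts. With at least 3 Cthrc1 UMIs as the mark, which left the same 2 hearts and the same limit, 28 were again higher and 3 lower. Over all genes, 3287 of 12673 were then higher and 3167 lower. Activated cells were also deeper, with a median of 16185 UMIs against 7692 in PDGFRa heart 1 and 8127.5 against 6653 in PDGFRa heart 4. Among cells of the same depth range 3 genes rose (Sec61b, Sec61g, Fkbp10) and Sdf2l1 fell, and after thinning each cell to 2000 UMIs, with at least 1 Cthrc1 UMI as the mark, Fkbp10 alone rose. Over all genes, 907 of 12080 rose and 1012 fell in the depth range, and 870 of 10942 rose and 898 fell after thinning.

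Other genes moved with the activated state, and their part in the result was not tested. The 10 activation markers, Cthrc1 among them, summed to 4581 to 13890 CPM in activated cells and to 577 to 1875 in the others. The 10 smooth muscle markers summed to 469 to 1050 against 54.0 to 177 CPM, and the 10 pericyte markers to 91.7 to 156 against 156 to 183 CPM. Acta2 is on both the activation and the smooth muscle list, so those sums are not independent. The 8 Sca1-high fibroblast markers summed to 8554 against 4088 CPM in citrine heart 3 and 2588 against 2245 in PDGFRa heart 3. In PDGFRa hearts 1, 2 and 4 they were at 607, 731 and 1372 against 1797, 1863 and 2324 CPM. The 7 Wif1 fibroblast markers, Comp shared with the activation list, summed to 2209 against 249.5 CPM in citrine heart 3. In PDGFRa hearts 1 to 4 they were at 396, 480, 1337 and 260 against 252, 261, 333 and 260 CPM. Of 8 fibrillar or fibril-associated (Col12a1) collagens 7 rose and 1 fell. Of 10 heat shock genes 8 fell, all but the mitochondrial Hspd1 and Hspe1. Of 12 immediate early genes, which cell dissociation can induce, 6 fell and 1 rose.

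The wider secretory pathway was read through 10 further gene lists, each to be set against the 17.4% of all genes that rose and the 18.9% that fell. The counts higher among chaperones, signal recognition, glycosylation, COPII and COPI genes (2 of 10, 2 of 12, 2 of 12, 3 of 16 and 2 of 15) were shares near that background. Collagen modification had the most called genes, with 10 of 19 higher and 1 lower. The prolyl hydroxylase subunit P4ha3 was 11.3-fold higher and the prolyl isomerase Fkbp11 2.97-fold (adjusted p 4.36e-10 and 6.86e-08), and Tmem38b, an ER ion channel, was the 1 that fell. Of 10 further lumenal chaperones 2 rose, the disulphide isomerase Pdia5 (2.47-fold) and Erp29 (1.46-fold). Of 12 signal recognition and translocation genes 2 rose, Srp9 and Srp72 of the signal recognition particle (1.403- and 1.33-fold). Of 12 glycosylation genes the oligosaccharyltransferase subunit Dad1 (1.35-fold) and the glucosidase subunit Prkcsh (1.34-fold) rose, and the catalytic subunit Stt3b fell. Of 16 COPII and cargo receptor genes 3 rose (Tfg by 1.425-fold, Surf4, Sec24a) and 2 fell (Sec24c by 1.61-fold, Tango2). Of 15 COPI and p24 genes the coat subunits Copz2 (1.397-fold) and Copg1 (1.245-fold) rose.

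None of 10 genes of ER-associated degradation passed in edgeR. Of 4 oxidation genes the sulfhydryl oxidase gene Qsox1 rose (1.24-fold). Of 10 stress sensors and factors 3 rose, the factor Creb3l3 (5.35-fold), the sensor Ern1 (1.420-fold) and Creb3. Of 16 targets of the integrated stress response 2 rose (Nupr1, Ddit4) and 3 fell, the pseudokinase gene Trib3 (3.98-fold), the factor Atf5 (2.76-fold) and the serine synthesis gene Psat1. Stt3b, Surf4, Sec24a, Tango2, Tmem38b, Creb3, Nupr1, Ddit4 and Psat1 are named here after their values were seen, as they complete small counts.

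The ligated tdTomato library gave the same comparison in other mice, with 272 activated cells among 3122 fibroblast-like cells of 3 pooled hearts and therefore no test. Here a gene was called when its CPM ratio passed 1.5-fold. Of the 38 genes 8 were over 1.5-fold higher, 4 of them lectin chaperones or isomerases, and Sdf2l1 was over 1.5-fold lower. Among 11526 genes with at least 20 UMIs, 14.9% were past 1.5-fold higher and 16.5% lower. The median log2 ratio was 0.43 over the 38 genes and -0.03 over all.

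Fkbp10 was at 170 CPM in activated and 78.9 CPM in other cells, a ratio of 2.16 with an exact 95% Poisson interval of 1.92 to 2.41. Pdia6 was at 535 and 283 CPM (ratio 1.89, 1.78 to 2.01). Calr was at 752 and 424 CPM (ratio 1.77, 1.68 to 1.87) and Serpinh1 at 2733 and 1561 CPM (ratio 1.75, 1.70 to 1.80). These intervals cover counting error only. Ssr2, Sec61b, P4hb and Pdia3 had ratios of 1.78, 1.74, 1.59 and 1.56. Hspa5 was at 663 against 493 CPM, a ratio of 1.35 (1.28 to 1.42), and Sdf2l1 at 21.6 against 33.1 CPM, a ratio of 0.660 (0.485 to 0.859). Xbp1 and Atf4 were lower in the activated cells, at ratios of 0.765 and 0.722, and Ddit3 was at 1.38. The activated cells held a median of 9480 UMIs and the others 3861.5. Among cells within the depth range of the activated ones, 3 genes remained over 1.5-fold higher (Sec61b, Ssr2, Fkbp10), and the median log2 ratio was 0.27.

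The levels were also followed over cells grouped by their Cthrc1 UMIs (0, 1, 2 to 3, 4 to 7, and 8 or more). In the ligated tdTomato library Serpinh1 stood at 1550, 1770, 2493, 2395 and 2856 CPM over these groups, and in the PDGFRa library at 1385, 1451, 1517, 1559 and 1823 CPM. Pdia6 went from 281 to 563 CPM between the first and last group of the tdTomato library and from 638 to 721 CPM in the PDGFRa library. Hspa5 went from 493 to 677 CPM in the first and from 2062 to 1947 CPM in the second. Sdf2l1 went from 124 to 42.3 CPM in the PDGFRa library, most of it between 1 and 2 to 3 UMIs (101 and 52.0 CPM). These sums pool the 4 PDGFRa hearts, and the activated cells came nearly all from hearts 1 and 2 (1077 and 1240, against 13 and 14 in hearts 3 and 4), while the hearts differed in level. Within hearts 1 and 2 Hspa5 was at 2315 and 1664 CPM in activated and 2320 and 1402 CPM in other cells, and Sdf2l1 at 50.3 and 30.3 against 113 and 49.2 CPM. Sdf2l1 was thus lower in the activated cells within both hearts, and Hspa5 was close in heart 1 and higher in heart 2. Median depth ran from 3841 to 10455 UMIs over the groups of the tdTomato library and from 6866 to 17462 UMIs in the PDGFRa library.

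**Figure D2:**
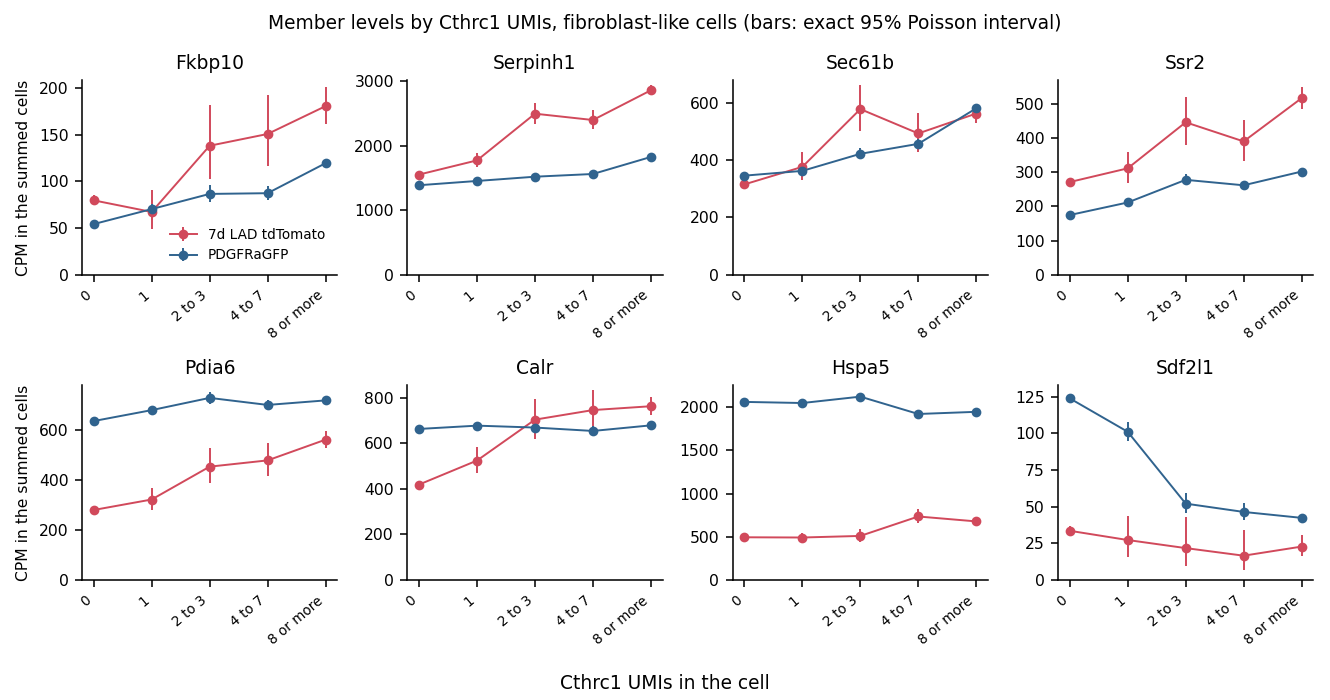
CPM (y axis, from 0) of 8 secretory genes in fibroblast-like cells summed by their Cthrc1 UMIs (x axis), in the ligated tdTomato and PDGFRa libraries, with exact 95% Poisson intervals. Fkbp10 and Sec61b are higher at 8 or more UMIs than at 0 in both libraries, Hspa5 stays between 1922 and 2123 CPM in the PDGFRa library, and Sdf2l1 is lower.

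The ligated tdTomato library was then set against the undamaged one, over all fibroblast-like cells. After ligation 7 of the 13 chaperones and isomerases were over 1.5-fold lower (Hspa5, Hsp90b1, Hyou1, Sdf2l1, Canx, Pdia3, Pdia4) and 2 of the 4 transcription factors over 1.5-fold higher (Xbp1, Atf4). No other gene of the 38 passed 1.5-fold; of 12291 genes with at least 20 UMIs, 11.9% were past 1.5-fold lower and 7.38% higher. The median log2 ratio was 0.08 over the 38 genes and -0.06 over all. Each condition is 1 library, so no test was possible, and ligation cannot be told apart from other differences between the libraries.

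Hspa5 was at 525 CPM after ligation and 972 CPM in the undamaged library, a ratio of 0.540 (0.523 to 0.557). Hyou1, an Hsp110-type exchange factor of Hspa5, was at 5.48 and 15.0 CPM, a ratio of 0.368 (0.274 to 0.487) from 79 and 136 UMIs. Sdf2l1 was at 31.0 and 54.5 CPM (ratio 0.568). Hsp90b1, Canx, Pdia3 and Pdia4 had ratios of 0.657, 0.655, 0.618 and 0.654, and Calr and Pdia6 of 0.759 and 0.795. P4hb went the other way at 1.38 (1.30 to 1.45), as did Manf at 1.15. None of these 13 genes was over 1.5-fold higher.

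The 10 genes at the ER entry and the 4 collagen folding genes all stayed within 1.5-fold. Ssr4, Ssr2 and Sec61a1 were at ratios of 1.39, 1.38 and 1.35, and Sec61g at 0.739. Serpinh1 was at 1780 and 1566 CPM (ratio 1.14), Fkbp10 at 1.099 and Fkbp7 at 0.960. The 7 export and retrieval genes ranged from 0.773 (Sec23a) to 1.23 (Kdelr1). Xbp1 was at 164 against 88.8 CPM, a ratio of 1.85 (1.71 to 2.01), and Atf4 at 257 against 153 CPM, a ratio of 1.68 (1.58 to 1.78). Ddit3 and Creb3l1 were at 1.11 and 1.17.

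The pattern was present without activated cells. With only cells of fewer than 2 Cthrc1 UMIs, 8 genes were over 1.5-fold lower, the 7 above and Calr, and Xbp1 and Atf4 were again over 1.5-fold higher; 11.7% and 6.16% of 12069 genes were past the fold. Hspa5 was then at 493 and 973 CPM (ratio 0.507) and Pdia3 at 375 and 669 CPM (ratio 0.561), while Serpinh1 (1561 and 1563 CPM) and Sec61b (319 and 315 CPM) had ratios near 1. Scaling decided some calls. Over all fibroblast-like cells, 38.4% of the genes past 1.5-fold were higher. With totals that leave out ribosomal and mitochondrial genes this became 48.4%, and with a trimmed-mean factor 51.1%. Of the 38 genes 4 were then over 1.5-fold lower in both (Hspa5, Hyou1, Sdf2l1, Pdia3). Of all 12291 genes 1195 and 1098 were lower under these 2 scalings, shares near that of the 38 genes.

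Other groups of genes differed between these libraries, and their part in the result was not tested. The 10 fibroblast markers summed to 48820 CPM after ligation and 87190 CPM in the undamaged library. They did not all move with the sum: Col1a1 and Col3a1, both on the list, were 2.09- and 1.90-fold higher after ligation. Smooth muscle markers summed to 315 and 162 CPM, immediate early genes to 25780 and 18250 CPM and heat shock genes to 5665 and 4403 CPM. The 7 Wif1 fibroblast markers summed to 153.8 and 670.5 CPM and the 8 Sca1-high fibroblast markers to 1962 and 2494 CPM. In cells with fewer than 2 Cthrc1 UMIs the smooth muscle markers summed to 151 and 157 CPM, while fibroblast markers (51550 and 87350 CPM), immediate early genes (28490 and 18290 CPM) and heat shock genes (6191 and 4408 CPM) still differed. Wif1 fibroblast markers differed there too, at 79.65 and 664.6 CPM, so the make-up of the fibroblast-like cells was not the same in the 2 libraries.

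Among the further lists, collagen modification had 6 of 19 genes over 1.5-fold higher after ligation and none lower. P4ha3 was at 6.53 against 0.440 CPM, a ratio of 11.98 (5.60 to 55.5). With fewer than 2 Cthrc1 UMIs, 3 of 18 measured genes of this list were higher and 2 lower. Of 16 targets of the integrated stress response Atf5 and Slc7a11 were higher and Cebpb and Ddit4 lower, Ddit4 with the widest ratio (0.241). Of 9 measured genes of ER-associated degradation Os9 was 1.71-fold lower, and of 12 glycosylation genes Rpn2 was 1.57-fold lower. Of 10 chaperones Txndc5, a disulphide isomerase, was 1.85-fold higher, and of 15 COPI and p24 genes the cargo receptor Tmed2 was past 1.5-fold higher (interval 1.48 to 1.74). In the other lists no gene passed 1.5-fold: the widest ratios were 0.702 for the translocation gene Sec62, 0.718 for the protease gene Mbtps1, 1.203 for the peroxiredoxin Prdx4 and 1.35 for the COPII organiser Sec16a.

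The promoters of the chaperone genes are shown because several of these genes were low together after ligation. The ER stress response element (ERSE) is a motif known to be bound by NF-Y and by Atf6, and is written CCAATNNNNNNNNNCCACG. RefSeq windows of GRCm38.p6, from 250 bases before to 50 after the start site, were at hand for 29 of the 38 genes. The ERSE was found on either strand in 6 of the 29 (20.7%), against 37 of the 27025 genes with a window of that length (0.137%). The 38 genes were chosen for their ER roles, and many ER chaperone genes are known targets of this response. This contrast with all genes is therefore no test. In the lines that follow the match is in capitals within 12 bases on each side, written 5′ to 3′ on the strand of the gene.
Hspa5, chr2:34772013-34772055 (plus): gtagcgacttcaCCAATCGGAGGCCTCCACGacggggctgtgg
Hsp90b1, chr10:86705626-86705668 (minus): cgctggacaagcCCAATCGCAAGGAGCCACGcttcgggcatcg
Hsp90b1, chr10:86705521-86705563 (minus): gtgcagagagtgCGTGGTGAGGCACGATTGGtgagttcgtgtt
Calr, chr8:84847063-84847105 (minus): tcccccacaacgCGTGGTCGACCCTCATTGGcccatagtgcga
Canx, chr11:50325788-50325830 (minus): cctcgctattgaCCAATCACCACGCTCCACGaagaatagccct
Pdia6, chr12:17266479-17266521 (plus): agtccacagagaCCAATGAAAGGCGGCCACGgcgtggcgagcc
Creld2, chr15:88819508-88819550 (plus): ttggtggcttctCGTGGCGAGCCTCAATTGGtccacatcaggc
Matches that open with CGTGG lie on the opposite strand. Distances count from the start site of each RefSeq window. The first base of the Hspa5 match lies 65 bases before the start site, and those of the Pdia6, Creld2, Canx and Calr matches 98, 126, 145 and 162 bases before it. The gene bounds given earlier come from another annotation, in which Hspa5 opens at 34771970, before its match at 34772025. Hsp90b1 held 2 matches, 212 and 107 bases before the start site. After ligation the 6 genes had ratios of 0.540 (Hspa5), 0.657 (Hsp90b1), 0.655 (Canx), 0.759 (Calr), 0.795 (Pdia6) and 1.11 (Creld2). Of all 13 chaperones and isomerases 10 were below 1, and Sdf2l1, Pdia3 and Pdia4, over 1.5-fold lower, had no ERSE in their windows.

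The whole Hspa5 window, chr2:34771840-34772139 on the plus strand, is shown with its ERSE in capitals because this gene had the lowest ratio after ligation of the 6.
Hspa5 window: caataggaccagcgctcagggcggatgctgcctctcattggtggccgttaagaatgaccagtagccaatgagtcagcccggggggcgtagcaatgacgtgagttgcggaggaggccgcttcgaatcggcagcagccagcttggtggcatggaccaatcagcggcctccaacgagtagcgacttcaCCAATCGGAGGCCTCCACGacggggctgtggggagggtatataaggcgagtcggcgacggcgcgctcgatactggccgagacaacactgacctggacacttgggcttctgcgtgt
It also holds TGACGTG, the core of the unfolded protein response element, 157 bases before the start site. That core was found in 5 of the 29 windows (Hspa5, Kdelr3, Mia3, Sec23a, Sec24d; 17.2%) and in 2.22% of all genes with a window. ERSE-II, written ATTGGNCCACG, was found in 1 (Dnajb11) and in 0.0444% of all genes. TTGCATCA, an element of the kind bound by Atf4 with its partners, was in none of the 29 windows and in 1.03% of all genes. A match says only that these letters are present in the window.

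Pericyte-like and smooth-muscle-like cells of the same libraries allowed the ligation ratio to be read in other cells. Hspa5 was lower in both: 446 against 792 CPM in pericyte-like cells (ratio 0.561, 0.490 to 0.649) and 506 against 773 CPM in smooth-muscle-like cells (ratio 0.653, 0.566 to 0.757). Hyou1 was at 5.36 and 22.5 CPM in pericyte-like cells, from 13 and 7 UMIs. Canx was at a ratio of 0.627 in pericyte-like cells. Xbp1 was at 153 against 80.2 CPM in pericyte-like cells (ratio 1.85, 1.28 to 3.00) and at a ratio of 1.30 (0.785 to 2.43) in smooth-muscle-like cells. Atf4 was at ratios of 1.15 and 1.01, with intervals that included 1. Pdia3 was at 0.834 and 0.950, against 0.561 in fibroblast-like cells with fewer than 2 Cthrc1 UMIs; this difference between classes was not tested, and the intervals for pericyte-like cells (0.687 to 1.03) and smooth-muscle-like cells (0.747 to 1.23) included 1. Serpinh1 was higher in both, at 1.31 (1.17 to 1.49) and 1.37 (1.19 to 1.601).

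Of the 37 genes with at least 20 UMIs in pericyte-like cells 5 were over 1.5-fold lower and 2 (Fkbp9, Xbp1) higher, among 24.1% and 11.6% of 8972 genes. Of the 36 in smooth-muscle-like cells 1 was lower and 7 higher, among 15.9% and 13.6% of 6558 genes. Both counts in pericyte-like cells were shares below the background. The undamaged library had a median depth of 1592 UMIs in its pericyte-like cells and the ligated one 2377.5.

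**Figure D3:**
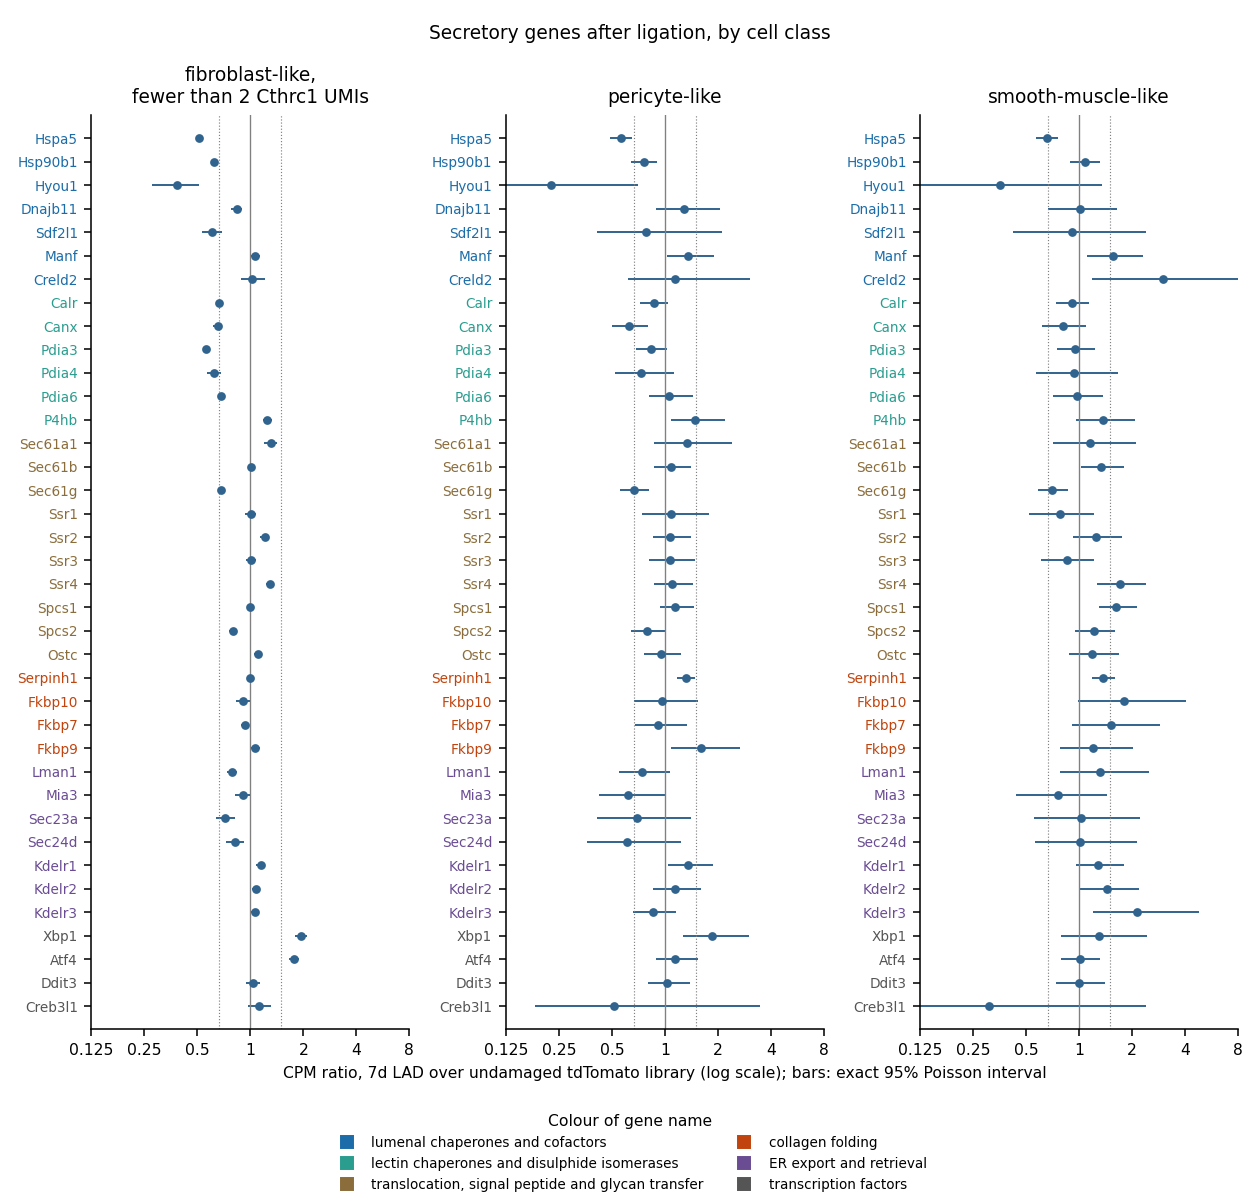
CPM ratio of the ligated over the undamaged tdTomato library (x axis, log scale) for the 38 genes in fibroblast-like cells with fewer than 2 Cthrc1 UMIs, pericyte-like and smooth-muscle-like cells, with exact 95% Poisson intervals and dotted lines at 1.5-fold. Hspa5 lies left of 1 in the 3 panels, and Xbp1 lies at 1.94, 1.85 and 1.30. Intervals that pass the axis are drawn to its edge.

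Within each tdTomato library many of the secretory genes were lower in smooth-muscle-like than in fibroblast-like cells, and fewer in pericyte-like cells. In smooth-muscle-like cells 27 of the 38 genes were over 1.5-fold lower than in fibroblast-like cells of the undamaged library and 23 in the ligated one, 20 of them in both, against 24.1% and 24.6% of all genes. Median log2 ratios of the 38 genes were -1.05 and -0.81, and those of all genes 0.08 and 0.06. In pericyte-like cells 13 and 11 genes were over 1.5-fold lower, 8 in both, against 16.4% and 17.5% of all genes, and the medians were -0.36 and -0.37 against 0.41 and 0.24 for all genes. Canx and Spcs2 were above their fibroblast-like level in pericyte-like cells, at ratios of 1.19 and 1.14 (Canx) and 1.124 and 1.122 (Spcs2), and only the ligated library's intervals lay above 1.

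Collagen folding genes and several export genes were among the 20. Fkbp7 was at 42.5 and 67.0 CPM in smooth-muscle-like, 132 and 123 CPM in pericyte-like, and 288 and 277 CPM in fibroblast-like cells of the undamaged and ligated libraries. Serpinh1 was at 573 and 788, 982 and 1291, and 1566 and 1780 CPM in the same order. Both genes thus kept 1 order of classes in both libraries, and the intervals of Serpinh1 did not overlap between classes. Kdelr3 was at 27.5 and 62.8 CPM in smooth-muscle-like and at 220 and 241 CPM in fibroblast-like cells. Lman1 was at 42.5 and 57.7 CPM against 188 and 162 CPM, and Creb3l1 at 7.50 and 2.06 CPM, from 3 and 2 UMIs, against 32.2 and 37.7 CPM.

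Hspa5 varied less between classes. It was at 773 and 506 CPM in smooth-muscle-like, 792 and 446 CPM in pericyte-like and 972 and 525 CPM in fibroblast-like cells, so its difference between the libraries was larger than its difference between classes. Ddit3 was highest in pericyte-like cells: it was at 196 and 205 CPM in pericyte-like, 145 and 146 CPM in smooth-muscle-like and 91.6 and 101 CPM in fibroblast-like cells. In the citrine library it was at 137 CPM in 220 pericyte-like cells and 54.3 CPM in fibroblast-like cells. It was the 1 gene of the 38 over 1.5-fold higher in pericyte-like cells of the ligated library, and Hyou1, from 7 UMIs, was another in the undamaged one.

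**Figure D4:**
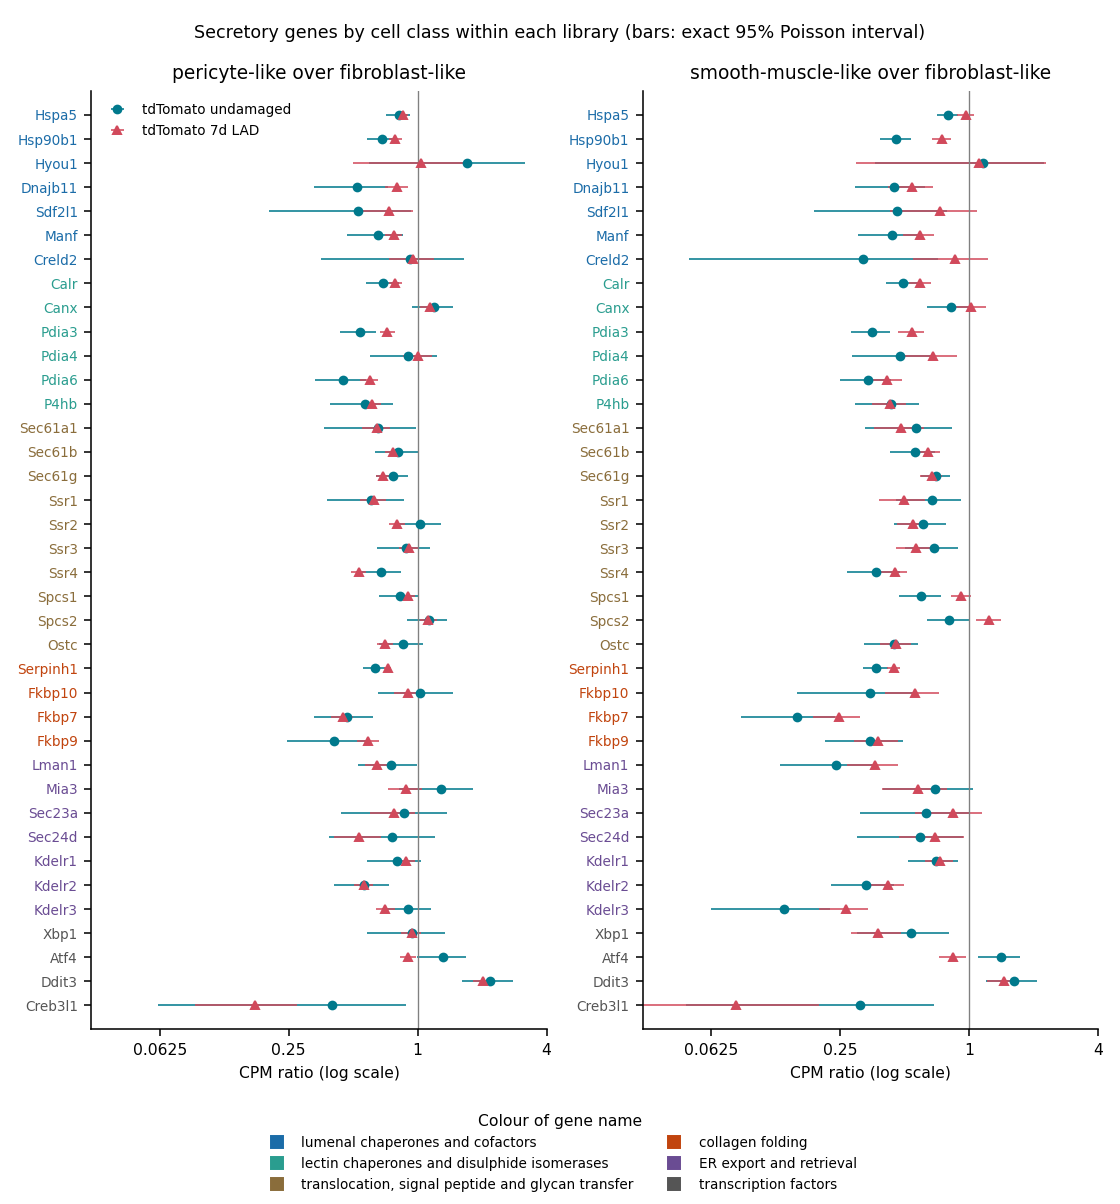
CPM ratio (x axis, log scale) of pericyte-like and of smooth-muscle-like over fibroblast-like cells within the undamaged and the ligated tdTomato library, for the 38 genes, with exact 95% Poisson intervals. Most symbols lie left of 1 in the smooth-muscle panel, where 27 and 23 genes were over 1.5-fold lower, and Ddit3 lies right of 1 in both panels.

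Single hearts could be read in the hashed libraries. In the 3 undamaged citrine hearts 5 of the 7 lumenal chaperones and cofactors had the widest spread of the 38 genes, with the highest heart between 1.519 (Hspa5) and 2.20 (Sdf2l1) times the lowest, and Pdia6 came next at 1.412. Hspa5 was at 1196, 787 and 926 CPM in fibroblast-like cells of citrine hearts 1 to 3, a mean of 969.5 ± 208 CPM (SD, n = 3). Manf was at 531, 307 and 346 CPM (395 ± 120), Creld2 at 112, 62.1 and 79.1 CPM (84.4 ± 25.4), and Sdf2l1 at 110, 49.98 and 79.5 CPM (79.8 ± 30). Heart 1 was highest and heart 2 lowest for each of these. Fkbp10 was at 58.5, 63.6 and 66.0 CPM (62.7 ± 3.81) and Kdelr2 at 291, 292 and 288 CPM (290 ± 2.49). The highest heart was over 1.5 times the lowest for 5 of the 38 genes (Hspa5, Hyou1, Sdf2l1, Manf, Creld2), all lumenal chaperones or cofactors, and for 8.35% of 11933 genes.

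The 4 PDGFRa hearts ranged more widely. Activated cells made up 34.2%, 41.7%, 0.627% and 0.675% of the fibroblast-like cells of hearts 1 to 4. Hspa5 was at 2318, 1558, 1838 and 2694 CPM, with a median between the hearts of 2078 CPM. Sdf2l1 was at 80.9, 37.9, 109 and 221 CPM, so heart 4 was 5.84 times heart 2. Manf was at 842, 541, 734 and 1053 CPM, and Ddit3 at 124, 160, 74.1 and 166 CPM. For Hspa5, Manf and Sdf2l1 heart 4 was highest and heart 2 lowest, with hearts 1 and 3 between.

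Fkbp10 and Ssr2 followed another order, while Sec61a1, Spcs2 and Ostc, also genes of the ER entry, were highest in heart 4 and lowest in heart 2, as Hspa5 was. Fkbp10 was at 88.7, 93.4, 50.4 and 47.5 CPM in hearts 1 to 4, and Ssr2 at 257, 239, 163 and 176 CPM. In cells with fewer than 2 Cthrc1 UMIs Fkbp10 was at 65.7, 60.5, 49.8 and 47.4 CPM and Ssr2 at 202, 172, 162 and 175 CPM. Removing activated cells thus brought the spread of Fkbp10 from 1.97-fold to 1.39-fold and of Ssr2 from 1.58-fold to 1.251-fold, while that of Hspa5 went from 1.73-fold to 1.92-fold. The highest heart was over 1.5 times the lowest for 14 of the 38 genes and for 44.3% of 12130 genes, a share above that of the secretory genes. Their median spread was 1.30-fold, against 1.44-fold for all genes. In cells with fewer than 2 Cthrc1 UMIs it was so for 15 of the 38 and for 3009 of 11432 genes, and both median spreads were 1.30-fold. No heart can be assigned to a condition from the labels, so these values describe single hearts and no test between them was made.

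**Figure D5:**
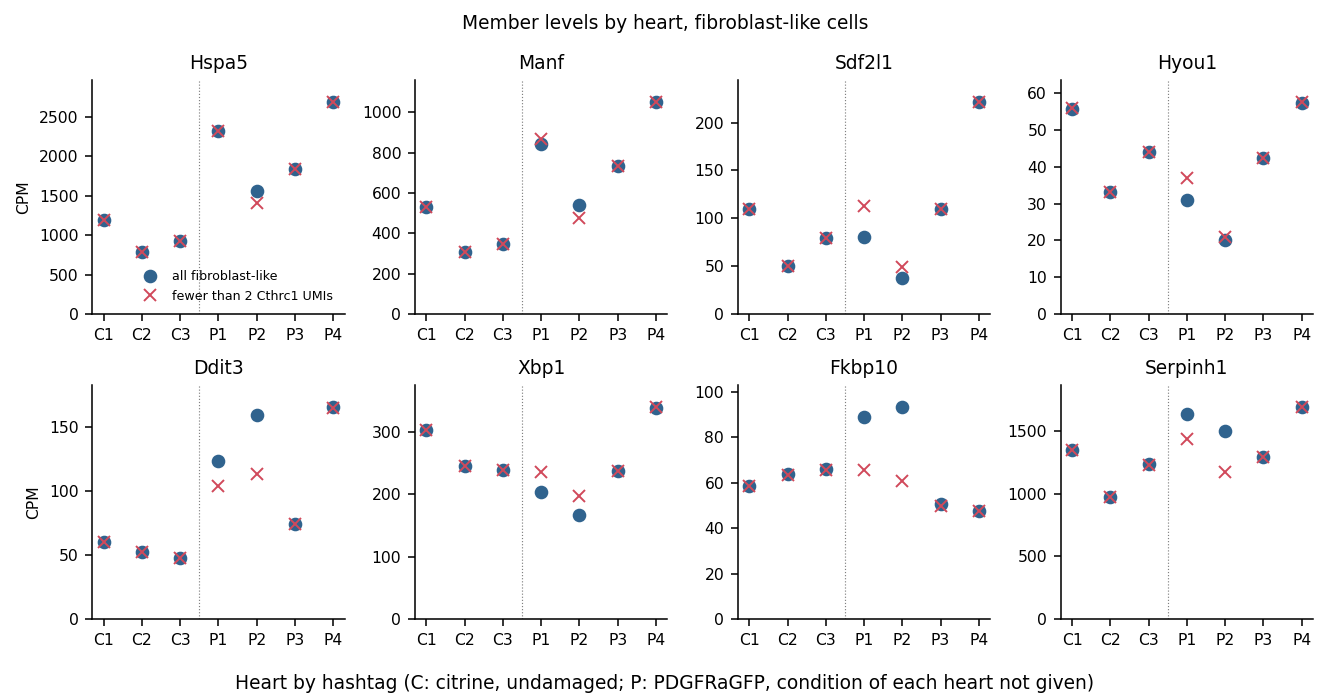
CPM (y axis, from 0) of 8 secretory genes in fibroblast-like cells of each hashed heart (x axis), for all cells and for cells with fewer than 2 Cthrc1 UMIs. Hspa5, Manf and Sdf2l1 are highest in heart 1 of the citrine and heart 4 of the PDGFRa library, and Fkbp10 of PDGFRa hearts 1 and 2 drops to 65.7 and 60.5 CPM without activated cells.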

How the data were processed

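The deposited tables give raw counts of UMIs for each gene in each barcode. They come from Cell Ranger with an mm10 reference that the authors extended by reporter genes, per the labels' protocols; the citrine and PDGFRa file headers give version 3.0.2. The submitters' processing notes also name Seurat 2.1; the deposited counts are whole and not normalised. The annotation used is not given in the sources used here. The 38 members and all gene lists were chosen with earlier results of these data known.

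A barcode needed 500 genes, 1000 UMIs and no more than 10% mitochondrial UMIs. Clustering ran on single libraries (Python 3.11.15; scanpy 1.11.5, pandas 2.3.3, leidenalg 0.10.2, numpy 2.4.6, igraph 0.11.9, scipy 1.17.1, matplotlib 3.10.9, scikit-learn 1.9.0): 2000 variable genes, 30 components, 20 neighbours, resolution 1, without the member and pathway genes. Clusters were named from at least 3 markers seen in at least 25% of cells; low-UMI clusters of 218 and 228 cells and cycling clusters stayed out, as did 13 endothelial-like and 8 epicardial-like cells. No doublet caller was run; 1941 citrine and 885 PDGFRa cells with over 1 hashtag and 1264 and 1182 with none were left out of values by heart. Hashtags were called by 2-means clustering.

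Activated against other cells was tested on counts summed per heart (edgeR 4.0.16, R 4.3.3, TMM scaling, Benjamini-Hochberg over all genes; DESeq2 1.42.0 as an alternative). On simulated data with known changes the edgeR step was checked before use. Single libraries were compared by CPM ratios with a pseudocount of 1 UMI, at least 20 UMIs, and exact 95% intervals. All members were described, and in each pathway list the 2 genes with the largest difference past the threshold, or the gene with the largest ratio after ligation. Reads of Calr and Spcs2 may be shared with the annotated pseudogenes Calr-ps and Spcs2-ps. Alternatives covered the Cthrc1 minimum, depth, scaling, filters, hashtag calls and hearts left out; the fit of all 7 hearts was added after the data were seen.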

Additional observations from a re-analysis of the deposited data

Results flagged for a closer look

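For Kdelr2, a retrieval receptor, PDGFRa heart 3 stood apart from the other 4 hearts of the comparison of activated with other cells. Its log2 ratio was -0.34, from 30 UMIs in activated cells, while the other hearts lay between 0.36 and 0.51. The gap was 0.819 of the range. A gap past the limit used, 0.71 of the range, is met in about 1 of 20 groups by chance. In all, 38 genes were looked at, of which 1 was marked in this way.

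The fourth hashtag of the citrine library, which no heart of the 3 is said to carry, held 0.5328% of the hashtag UMIs (2790 UMIs) and entered no analysis.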

How the results depend on the processing

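Values that changed are given here. For activated against other cells within hearts, 10 genes were higher and 1 lower, with a median log2 of 0.20. Higher and lower genes were 2 and 0 with at least 1 Cthrc1 UMI, 28 and 3 with at least 3, and 28 and 3 in the 2 hearts with at least 20 activated cells (medians 0.36 and 0.36). The last 2 settings each left 2 hearts, too few for a test under the plan. The counts were 1 and 0 after thinning to 2000 UMIs (median 0.073) and 3 higher within the activated cells' depth range. They were 16 higher in PDGFRa hearts alone and 2 higher (Sec61b, Fkbp10) with all 7 hearts. With hashtags of at least 80% and in DESeq2 0 were lower, and without scaling beyond the total 2 were. Over all genes, 2234 rose and 2432 fell in edgeR, 887 and 661 in DESeq2, 1805 and 3283 without scaling beyond the total, 711 and 591 with at least 1 Cthrc1 UMI, and 907 and 1012 within the depth range. Without the replicate block 6 were higher and 0 lower; the block pairs cells of the same heart. Leaving out 1 heart gave 2 to 16 higher and 0 to 1 lower, and medians of 0.12 to 0.29. Fkbp9, not called at -0.11, was higher with at least 3 Cthrc1 UMIs (log2 0.23) and in hearts with at least 20 activated cells (0.22), both fits of 2 hearts.

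For ligated against undamaged fibroblast-like cells (7 lower, 2 higher), 4 were lower with totals free of ribosomal and mitochondrial genes and 4 with the TMM factor. Of all 12291 genes, 1195 and 1098 were then lower, against 1458 before. With a fold threshold below 1.5 12 of the 38 were lower and 6 higher, at 2-fold 1 (Hyou1) and 0. The median of 0.08 was -0.021 in cells with 0 Cthrc1 UMIs and -0.044 in cells of 2000 to 6000 UMIs. For activated cells of the ligated library (8 higher, 1 lower, median 0.43), 24 and 3 passed that lower threshold and 1 and 0 passed 2-fold. Higher genes were 15 in all kept cells and 3 within the depth range (median 0.27). Lower genes were 0 with totals free of ribosomal and mitochondrial genes, a pseudocount of 5, at most 5% mitochondrial UMIs, all kept cells, and at least 1 or at least 3 Cthrc1 UMIs. Pericyte-like cells had 4 genes lower in both libraries among cells of 2000 to 6000 UMIs, against 8. The cause of these changes was not tested. With no replicate library, counting intervals leave out the spread between mice, and genes such as Hyou1 and Creb3l1 had few UMIs in mural cells.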
